A study of Rattus norvegicus with 15 samples.

Results

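Prostate tissue of rats with experimental chronic prostatitis that had received low-intensity pulsed ultrasound (LIPUS) was set against prostate tissue of untreated rats without prostatitis (Control), to see which differences from normal tissue remained after treatment. All animals were SD (Sprague-Dawley) rats, a common outbred laboratory strain. The LIPUS group had been treated for 4 weeks. Its intensity is not settled here, since 1.0 W/cm2 stands in the titles of its samples but 1.5 W/cm2 in their treatment field. The labels give neither the ages of the animals nor how prostatitis was induced. Of the 15 RNA-seq samples of the series, 10 entered the comparison, 5 Control and 5 LIPUS, each numbered 6 to 10. The other 5, from rats with prostatitis and no ultrasound (Model), were not tested and stand beside some genes as values only. Whether each sample is 1 animal is not stated in the labels, and p-values then cover only sample-to-sample spread, part of which can be technical.

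The genes described are protein-coding genes of the nuclear genome. Of 18114 in the table, 17948 had a value above 0 in at least 1 of the 10 libraries and 12139 were above 0.5 FPKM (a gene’s fragments divided by its length in kilobases and by the depth of the library) in 5 or more, and these were tested. Each library was first rescaled to its fragments outside the 13 mitochondrially encoded genes. A gene was called when limma gave an adjusted p under 0.05.

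The rat prostate is a secretory gland. Its luminal epithelium depends on androgens and releases lobe-specific proteins, citrate and zinc, above a thin basal layer and a stroma of fibroblasts, smooth muscle and vessels. Low-intensity ultrasound is thought to act on cells as a mechanical stimulus. Prostatitis brings leukocytes into this tissue, and interleukin 1 signals there through its receptor and the adaptor MyD88. In whole tissue, fewer cells of a type and less RNA per cell cannot be told apart.

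The libraries of the groups differed in make-up before any gene was compared. Mitochondrially encoded genes took 4.23% ± 0.41 (SD, n = 5) of Control reads and 59.6% ± 15.7 (SD, n = 5) of LIPUS reads (exact permutation test, two-sided, p = 0.00794, which is the lowest value that 5 against 5 samples can give, adjusted p = 0.0278 over 7 library measures). The remaining reads numbered 29557120 to 34695530 per Control library and 5655312 (LIPUS 10) to 19086339 per LIPUS library. Genes with at least 1 read numbered 18532 ± 362 in Control and 14439 ± 1297 in LIPUS (SD, n = 5, the same exact and adjusted p). A count of 0 in a gene of 2 kb left room for 0.0432 to 0.0508 FPKM in Control and for 0.0786 to 0.265 FPKM in LIPUS (3 reads, counting error only). Of 6676 genes at 5 FPKM or more in Control, 0 to 3 had no read in a Control library, against 58, 6, 16, 3 and 96 in LIPUS 6 to 10. A low LIPUS value of 1 gene in 1 library is therefore weaker evidence than a low Control value. Ventral lobe secretory transcripts took 15.7% ± 2.94 of the remaining reads in Control and 9.43% ± 6.82 in LIPUS, from 1.61% in LIPUS 10 to 18.6% in LIPUS 9, and the groups did not differ past the threshold (exact permutation adjusted p = 0.181). Dorsolateral lobe transcripts took 1.69% ± 1.86 and 3.40% ± 1.86 (SD, n = 5, exact permutation adjusted p = 0.231). Transcripts of prostate secretory epithelium were present in all 10 libraries. In the Model libraries, mitochondrially encoded genes took 23.5% to 43.5% of reads. Ventral transcripts took 0.0274% to 9.13% of their remaining reads, dorsolateral 0.0422% to 16.8% and seminal vesicle 0.0088% to 18.3%. Model values set beside LIPUS below therefore come from libraries of another make-up. The part of these differences in the results below was not tested.

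**Figure D1:**
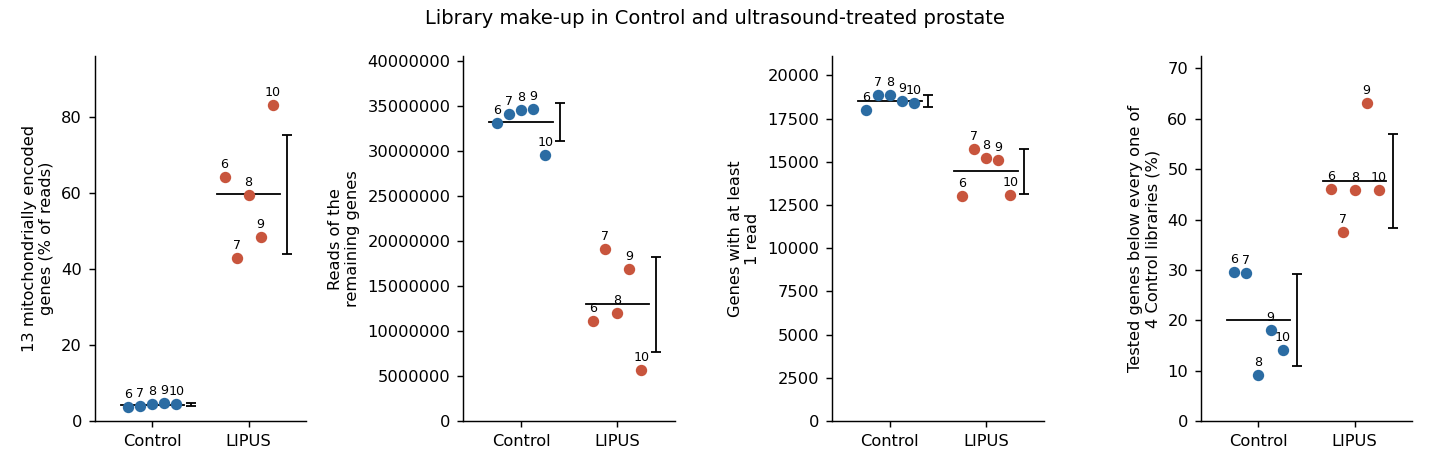
Make-up of the 5 Control and 5 LIPUS libraries, numbered by replicate: percent of reads in mitochondrially encoded genes, reads of the remaining genes, genes with at least 1 read, and percent of tested genes below all of 4 Control libraries (for a Control library the other 4, for a LIPUS library the mean over the 5 sets of 4). Lines are means and bars are SDs. No LIPUS library overlaps Control in any of the 4 panels.

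Ultrasound-treated prostate differed from normal prostate at 3521 of the 12139 tested genes (29%). Of these, 1214 were higher in LIPUS (10%) and 2307 were lower (19%). Higher genes made up 34.5% of the calls, 18.6% with scaling to summed FPKM and 1.04% in values as deposited, which include the mitochondrial genes in the scale. A change of at least 2-fold was called at 670 genes upward (5.52%) and 1804 downward (14.9%), and of at least 16-fold at 11 and 37. The values of the groups did not overlap at 845 genes higher in LIPUS (6.96%) and 2048 lower (16.9%). An unadjusted p under 0.05 was reached at 4956 genes (40.8%). By contrast, the unadjusted 95% interval of the difference lay within 2-fold either way at 3697 genes (30.5%). The median gene was at −0.25 on the log2 scale, so a difference relative to the median gene, called a relative difference below, has this shift taken out, while each p tests the difference before that step.

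The LIPUS libraries varied far more than the Control libraries. The SD of the log2 values was larger in LIPUS at 11647 genes (95.95%), with a median of 0.648 against 0.202 in Control. Measured against sets of 4 Control libraries, LIPUS 9 had 63.1% of tested genes below and 17.5% above all of them, and LIPUS 7 had 37.6% below and 41.7% above. Without LIPUS 9 the calls were 1803 higher and 2208 lower.

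Gene length moved with the direction of the difference. Among genes under 1 kb, 44.4% were called higher and 3.24% lower, and among genes over 8 kb 1.02% were called higher and 38.9% lower. The median log2 difference went from 0.71 in the shortest class to −0.73 in the longest. When a smooth trend on length was taken out of each library, an alternative chosen after seeing the data, 1331 genes were called higher and 1486 lower, of which 2009 kept their call and direction and 8 turned. In that fit 20 of 26 cell cycle, 22 of 26 matrix and 9 of 11 endothelial genes were lower, and 13 of 16 macrophage, 11 of 19 interferon and 36 of 39 ribosomal protein genes were higher. Median member lengths stand beside the larger groups below.

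**Figure D2:**
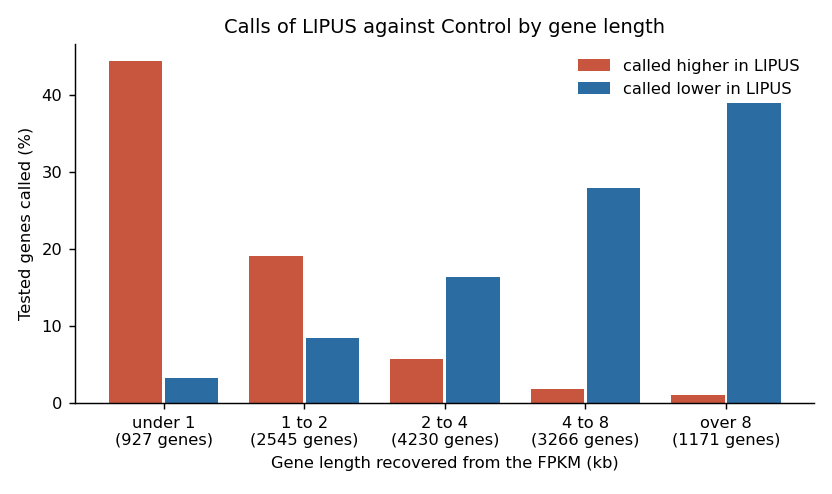
Percent of tested genes called higher (red) or lower (blue) in LIPUS than in Control, in 5 classes of gene length in kb with the number of genes in each. Calls go from 44.4% higher under 1 kb to 38.9% lower over 8 kb.

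**Figure D3:**
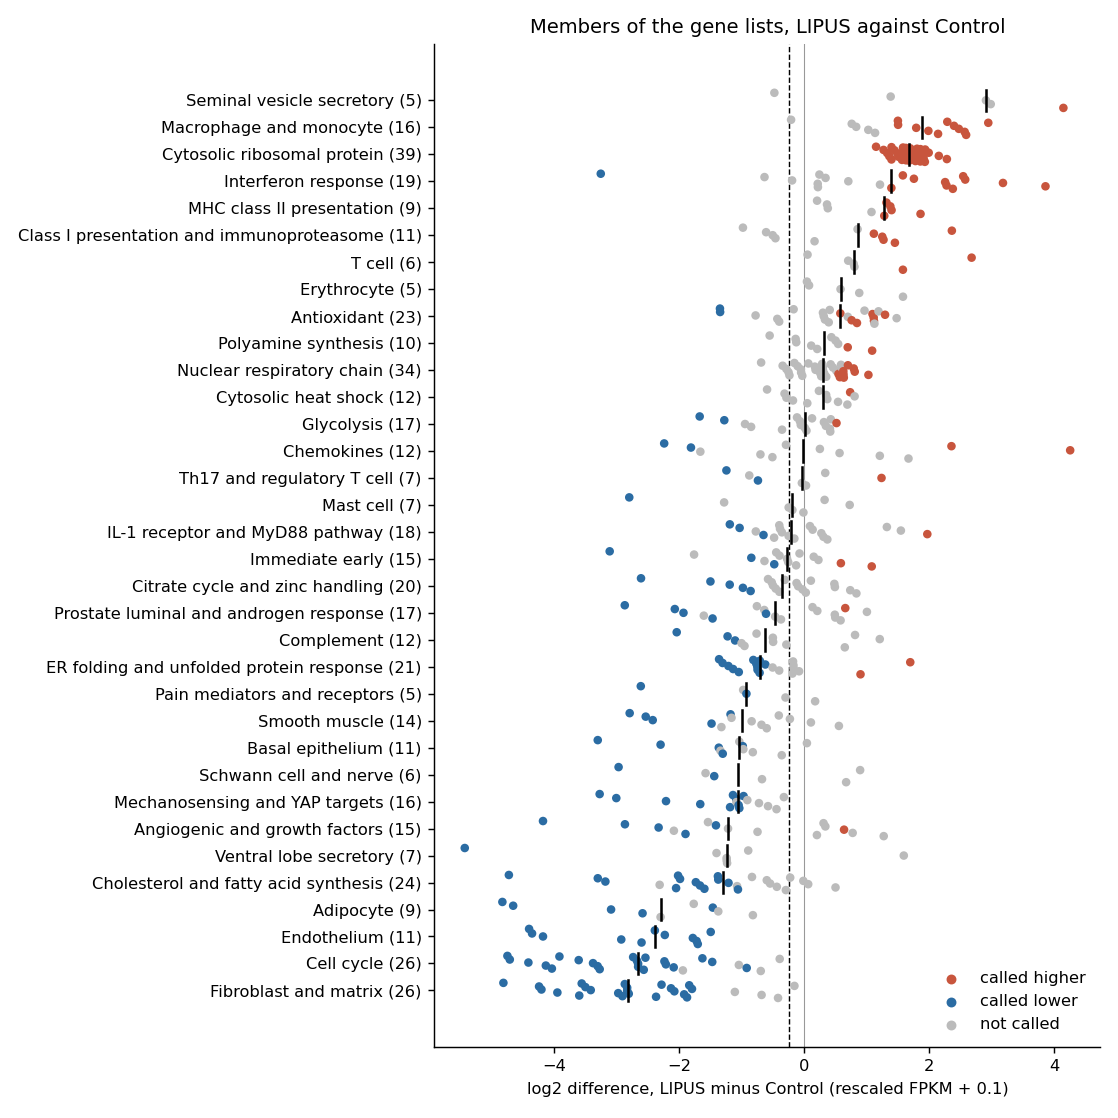
Fitted log2 difference (LIPUS minus Control) of each tested member of the gene lists with at least 5 tested members, 1 point per gene, with the number tested in parentheses. Black ticks are list medians, the dashed line the median of all tested genes, and colours mark calls. Cell cycle, matrix, endothelial and adipocyte genes lie lowest and macrophage, ribosomal and interferon genes are mostly above 0. In values as deposited the medians of the class II, class I, antioxidant, polyamine, respiratory chain, heat shock, erythrocyte and glycolysis lists turn below 0.

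Genes of cell division were lower nearly throughout. Of 26 cell cycle genes, all tested, 22 were lower in LIPUS and 0 higher, with a median log2 difference of −2.66 against −0.25 over all tested genes (median length 3.26 kb). The members not called were Aurka, Mcm2, Mcm7 and E2f1. Top2a (NCBI gene 360243) makes the topoisomerase that untangles DNA during replication and mitosis. It was at 14.5, 13.1, 19.3, 10.6 and 20.6 FPKM in Control 6 to 10 and at 0.508, 0.633, 0.434, 0.143 and 1.07 FPKM in LIPUS 6 to 10. Every LIPUS value was far below every Control value (relative log2 difference −4.46 ± 0.39 SE, adjusted p = 6.72e-05). In Model, Top2a lay between 0 and 0.134 FPKM. Rrm2, the ribonucleotide reductase subunit that supplies DNA precursors, was at 18.7, 6.43, 9.21, 8.74 and 17.2 FPKM in Control and 1.05, 0.528, 0.659, 0.669 and 0.432 FPKM in LIPUS, again without overlap (relative difference −3.67 ± 0.35, adjusted p = 7.67e-05). Cdk1, the kinase that drives entry into mitosis, fell less, from 16.0 ± 5.08 to 2.41 ± 0.979 FPKM (SD, n = 5, relative difference −2.49 ± 0.34, adjusted p = 0.000262). Its Model values, 0 to 1.04 FPKM, met the LIPUS range of 1.02 to 3.65 FPKM at its lower end. The mitotic motor Kif11 was at 4.91 ± 1.02 and 0.732 ± 0.338 FPKM (relative difference −2.41 ± 0.33, adjusted p = 0.000266). The replicative helicase subunit Mcm7, the most abundant member that was not called, was at 16.4 ± 1.84 and 12.6 ± 2.45 FPKM (adjusted p = 0.122), and its ranges overlapped.

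Promoters of such genes are known to carry the cell cycle homology region TTTGAA, where cell cycle regulators bind, and CCAAT boxes, where NF-Y binds. RefSeq (GRCr8, not the build of the values) gave a promoter window for 17 of the 22 called cell cycle genes. In the 250 bases before the start, either strand, TTTGAA stood in 6 of the 17 and in 16% of all 27457 windows, CCAAT in 14 of the 17 and in 34.3%, and both in 6 and in 5.76%. The windows of the 3 genes with the smallest p among those 6 show how the motifs are placed, with both motifs in capitals (Top2a chr10:84473094-84473343, minus strand, Cdk1 chr20:19265043-19265292, plus strand, Mki67 chr1:199952594-199952843, minus strand):
Top2a: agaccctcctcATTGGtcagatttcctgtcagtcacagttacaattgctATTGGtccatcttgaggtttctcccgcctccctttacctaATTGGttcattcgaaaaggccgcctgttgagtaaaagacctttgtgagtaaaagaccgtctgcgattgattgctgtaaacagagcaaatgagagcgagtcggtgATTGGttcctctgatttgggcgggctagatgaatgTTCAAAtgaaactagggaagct
Cdk1: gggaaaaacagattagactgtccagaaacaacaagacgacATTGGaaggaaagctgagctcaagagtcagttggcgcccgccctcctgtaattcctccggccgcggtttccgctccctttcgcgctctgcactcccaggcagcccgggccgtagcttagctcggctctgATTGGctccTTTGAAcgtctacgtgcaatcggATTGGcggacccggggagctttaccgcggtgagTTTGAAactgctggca
Mki67: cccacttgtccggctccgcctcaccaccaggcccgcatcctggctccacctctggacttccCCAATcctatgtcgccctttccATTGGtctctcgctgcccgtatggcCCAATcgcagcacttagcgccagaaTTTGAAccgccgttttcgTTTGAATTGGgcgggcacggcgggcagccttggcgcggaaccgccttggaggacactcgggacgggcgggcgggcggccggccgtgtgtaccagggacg
The match nearest the start began 22 bases before it in Top2a and 16 bases before it in Cdk1, both TTTGAA. In Mki67 a TTTGAA and a CCAAT overlapped. Mki67, the nuclear antigen used to count dividing cells, was itself at 6.97 ± 1.62 FPKM in Control and 0.636 ± 0.482 FPKM in LIPUS (SD, n = 5, relative difference −3.36 ± 0.53, adjusted p = 0.000631). Windows in which a motif was found are a description of letters, not of sites in use.

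The extracellular matrix group fell as strongly. Of 26 fibroblast and matrix genes, 22 were lower and 0 higher (median log2 difference −2.82 against −0.25, median length 4.52 kb). Col1a1 (29393), a chain of the main fibrillar collagen, was at 118, 202, 289, 141 and 174 FPKM in Control 6 to 10 and 10.8, 4.13, 7.72, 8.03 and 27.5 FPKM in LIPUS 6 to 10. The highest LIPUS value, in LIPUS 10, stayed below the lowest Control value (relative difference −3.96 ± 0.42, adjusted p = 0.00012), and the Model values were lower still at 1.37 to 5.46 FPKM. Col4a1, a chain of the basement membrane collagen, was among the 12 genes with the largest falls, from 33.7 ± 8.50 to 1.20 ± 0.541 FPKM (SD, n = 5, relative difference −4.56 ± 0.38, adjusted p = 4.93e-05). The microfibrillar collagen gene Col6a3 went from 14.5 ± 3.98 to 1.21 ± 0.581 FPKM (relative difference −3.31 ± 0.34, adjusted p = 8.68e-05), and Timp3, an inhibitor of matrix-degrading proteases, from 18.8 ± 4.63 to 2.59 ± 0.910 FPKM (−2.58 ± 0.28, adjusted p = 0.000101). Those not called were the small proteoglycan genes Dcn, Lum and Bgn and the protease inhibitor gene Timp1. Dcn, the decorin gene that fibroblasts express at a high level, was at 216, 329, 302, 216 and 283 FPKM in Control and 221, 96.8, 401, 135 and 660 FPKM in LIPUS. The LIPUS values lay on both sides of Control (relative difference 0.09 ± 0.44, adjusted p = 0.817).

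All 11 tested endothelial genes, which line blood vessels, were lower (11 of 11, median log2 difference −2.39, median length 3.89 kb), and their summed level ranged from 27.6 to 52.6 FPKM in Control and 6.89 to 9.52 FPKM in LIPUS. Cdh5 (307618), the cadherin of endothelial junctions, was at 3.34, 5.42, 6.06, 4.83 and 6.37 FPKM in Control and 0, 0.123, 0, 0.418 and 0.667 FPKM in LIPUS. It had no read in LIPUS 6 and LIPUS 8, and the other LIPUS values lay below all of Control (relative difference −4.15 ± 0.58, adjusted p = 0.000363). The Model range of Cdh5 was 0.0771 to 0.777 FPKM. Kdr, the main receptor for vascular endothelial growth factor, had reads in LIPUS 7 alone among the LIPUS libraries, at 0.178 FPKM, against 1.13 to 2.85 FPKM in Control. It passed the level filter only through the Control libraries. Pecam1, an adhesion molecule of endothelium and some leukocytes, was measured in every library and went from 9.20 ± 2.33 to 1.65 ± 0.308 FPKM (relative difference −2.14 ± 0.26, adjusted p = 0.000164). Plvap, which forms the diaphragms of vessel wall pores and was among the 12 largest falls, went from 6.70 ± 1.85 to 0.275 ± 0.378 FPKM (adjusted p = 0.000455). Of 15 angiogenic and growth factor genes, 5 were lower and 1 higher, against 19% and 10% of all tested genes (median length 3.93 kb). Among them Vegfa, the growth factor that Kdr binds, was at 12.3 ± 1.05 and 4.65 ± 1.30 FPKM without overlap (relative difference −1.16 ± 0.20, adjusted p = 0.000559). Egf, a growth factor that the rat prostate secretes, was at 31.2 ± 15 and 79.0 ± 53.2 FPKM with overlapping ranges (adjusted p = 0.0523). It was called higher in 5 of the other settings, among them the length correction (adjusted p = 0.0139), and in 3 fits without 1 library.

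Adipocyte genes varied within Control, where their summed level ran from 26.8 to 287 FPKM, against 6.17 to 106 FPKM in LIPUS. Of 9 tested, 5 were lower and 0 higher, against 19% and 10% of all tested genes (median log2 difference −2.30, median length 2.71 kb). Plin1, which coats the fat droplet, was at 2.01, 0.715, 6.86, 11 and 3.71 FPKM in Control and had reads in LIPUS 9 alone, at 0.175 FPKM (relative difference −4.58 ± 0.68, adjusted p = 0.000485). Plin1 passed the level filter only through the Control libraries, so its p-value is no separate support. It lost the call with limma-voom (adjusted p = 0.0602). Lpl, the lipase that releases fatty acids from lipoproteins, went from 24.7 ± 15 to 4.35 ± 3.27 FPKM (−2.34 ± 0.63, adjusted p = 0.00991) with overlapping ranges. Fabp4, a fatty acid carrier, was at 62.5 ± 55.6 and 22.0 ± 27.2 FPKM and was not called (adjusted p = 0.155). Its highest LIPUS value, 69.6 FPKM, came from LIPUS 10, and without that library the call passed at an adjusted p of 0.0373.

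Contractile and basal cell genes were lower in part. Of 14 smooth muscle genes, 5 were lower and 0 higher, against 19% and 10% of all tested genes. Their median log2 difference was −1.0 (median length 2.77 kb), and without LIPUS 10 the number lower was 10. Myh11 (24582), the smooth muscle myosin, was at 64.3, 170, 189, 95.3 and 109 FPKM in Control and 11.5, 27.5, 16.5, 37.0 and 24.5 FPKM in LIPUS. The groups did not overlap (relative difference −2.18 ± 0.35, adjusted p = 0.000587), while Model ranged from 2.16 to 107 FPKM. Acta2, smooth muscle actin, went from 540 ± 238 to 100 ± 94.9 FPKM (−2.54 ± 0.53, adjusted p = 0.00275). The regulatory light chain gene Myl9 was at 286 ± 109 and 225 ± 208 FPKM (adjusted p = 0.332). Of 11 basal epithelial genes, 5 were lower and 0 higher, against the same 19% and 10% (median length 4.14 kb). Once the length trend was taken out, 2 were lower. Itgb4, the integrin that anchors basal cells, went from 6.84 ± 0.895 to 0.714 ± 0.499 FPKM (−3.05 ± 0.40, adjusted p = 0.000238), and the basal keratin Krt5 from 10.7 ± 1.37 to 4.48 ± 1.81 FPKM (−1.06 ± 0.25, adjusted p = 0.00308). Krt15, another basal keratin, was at 37.9 to 50.5 FPKM in Control and at 11.3, 24.6, 173, 24.1 and 38.5 FPKM in LIPUS, where LIPUS 8 lay above and 3 libraries below Control (adjusted p = 0.654).

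In the luminal epithelium, markers differed in direction. Of 17 luminal and androgen response genes, 5 were lower and 1 higher, against 19% and 10% of all tested genes (median log2 difference −0.46, median length 3.0 kb). The transporter gene Slc45a3, an androgen target, went from 57.1 ± 12 to 14.8 ± 7.80 FPKM (−1.82 ± 0.32, adjusted p = 0.000901), and Model ranged from 11.2 to 39.9 FPKM. Cdh1 (83502), the cadherin of epithelial junctions, was at 76.0, 61.8, 73.0, 89.1 and 79.6 FPKM in Control and 19.9, 33.3, 26.5, 41.2 and 20.6 FPKM in LIPUS. The groups did not overlap (relative difference −1.22 ± 0.21, adjusted p = 0.000581). Krt18, a keratin of luminal cells, was higher at 165 ± 29.9 FPKM against 104 ± 14.8 FPKM (0.90 ± 0.17, adjusted p = 0.0147), a call lost with the summed FPKM scaling, quantile normalization and the length correction and turned in values as deposited. Epcam, an adhesion molecule of epithelial cells, was at 180 ± 14 and 206 ± 63.8 FPKM (adjusted p = 0.675), and its direction changed with the scaling.

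Secretory transcripts of the lobes were measured at very high levels and varied widely. The ventral lobe’s prostatein component Scgb1d4 was at 85240, 46292, 70318, 77495 and 85541 FPKM in Control and 69913, 23335, 28294, 78367 and 6943 FPKM in LIPUS, where LIPUS 6 and 9 lay within Control and LIPUS 10 far below (relative difference −0.99 ± 0.72, adjusted p = 0.219). Model reached from 78.3 to 42227 FPKM. The dorsolateral product Pbsn, probasin, was at 20334 ± 22856 and 39171 ± 20063 FPKM (SD, n = 5, adjusted p = 0.217). Lao1, an amino acid oxidase of the ventral list, was the gene with the largest fall of all by the naming rule: 771, 582, 458, 639 and 993 FPKM in Control and 41.0, 12.8, 55.6, 18.6 and 1.49 FPKM in LIPUS (−5.18 ± 0.76, adjusted p = 0.000495). It was the 1 called member of 7. Of 5 tested seminal vesicle secretory genes, Svs3a was called higher, at 4.04 ± 5.36 and 105 ± 161 FPKM with overlapping ranges (4.39 ± 1.05, adjusted p = 0.0122). Semg1, the abundant member of that list, was at 375 to 91522 FPKM in Control and 378 to 33103 FPKM in LIPUS (adjusted p = 0.838). It varied widely within both groups.

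Prostate epithelium makes sterols and fatty acids at a high rate. Of 24 cholesterol and fatty acid synthesis genes, 13 were lower and 0 higher (median log2 difference −1.29, median length 3.61 kb). Scd, the desaturase that makes monounsaturated fatty acids, was at 32.3, 12, 64.1, 225 and 50.4 FPKM in Control and 1.43, 2.50, 1.21, 1.70 and 2.28 FPKM in LIPUS (−4.48 ± 0.60, adjusted p = 0.0003). Every LIPUS value was below every Control value. The transcription factor gene Srebf1 (78968), which drives these enzymes, was at 16.2, 11.5, 11.6, 14.6 and 12.3 FPKM in Control and 3.38, 2.73, 2.84, 4.37 and 2.47 FPKM in LIPUS. The groups lay apart (−1.80 ± 0.21, adjusted p = 0.000139), and Model ranged from 2.13 to 8.02 FPKM.

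Citrate cycle and zinc handling genes were called lower about as often as genes in general: of 20, 5 were lower and 0 higher, against 19% and 10% of all tested genes (median log2 difference −0.35, median length 1.99 kb), and 3 were lower without Control 8 or without Control 10. Those lower included the zinc importer Slc39a1 at 35.9 ± 1.89 and 18.5 ± 4.01 FPKM (−0.73 ± 0.18, adjusted p = 0.00196) and the zinc exporter Slc30a4 at 13.7 ± 1.97 and 5.09 ± 2.11 FPKM (−1.25 ± 0.28, adjusted p = 0.00223). Of 21 genes of folding and stress in the endoplasmic reticulum, 12 were lower and 2 higher (median log2 difference −0.71, median length 2.48 kb). Xbp1 (289754), a transcription factor of secretory cells, was at 156, 174, 169, 158 and 155 FPKM in Control and 93.5, 100, 103, 91.1 and 88.8 FPKM in LIPUS, a small difference with little spread (−0.52 ± 0.12, adjusted p = 0.00113). Edem1, which marks misfolded proteins for removal, went from 58.5 ± 12.7 to 23.0 ± 6.14 FPKM (−1.11 ± 0.23, adjusted p = 0.00134). The higher members were Atf4 and its target Ddit3, the stress factor CHOP, which was at 7.04, 8.84, 8.81, 6.43 and 5.96 FPKM in Control and 19.5, 26.1, 25.4, 16.8 and 36.1 FPKM in LIPUS without overlap (1.94 ± 0.23, adjusted p = 0.00037).

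Genes listed for mechanosensing and YAP signalling were lower where they were called. The channel genes Piezo2 and Trpv4 did not pass the level filter. Of 16 mechanosensing and YAP target genes, 10 were lower and 0 higher (median log2 difference −1.07), but this was the list with the longest genes (median 5.09 kb) and 5 were lower once the length trend was taken out. Piezo1, a stretch-gated channel, was at 7.67, 4.99, 5.67, 7.43 and 7.45 FPKM in Control and 2.19, 0.566, 0.362, 1.96 and 0.168 FPKM in LIPUS (−2.76 ± 0.55, adjusted p = 0.00217). All 5 LIPUS values were lower than Control. Vcl, vinculin of focal adhesions, went from 19.2 ± 4.65 to 6.42 ± 2.89 FPKM (−1.42 ± 0.32, adjusted p = 0.00308), while the coactivator gene Yap1 was not called at 28.5 ± 1.76 and 22.7 ± 10.9 FPKM (adjusted p = 0.227), and was called without LIPUS 10 (adjusted p = 0.0189). Of 19 pain-related genes only 5 passed the level filter. Of these 2 were lower and 0 higher, against 19% and 10% of all tested genes. The 2 included P2rx7, an ATP-gated channel of immune cells, at 1.84 ± 0.298 and 0.285 ± 0.233 FPKM (−2.37 ± 0.52, adjusted p = 0.00345). After the length correction 1 of the 5 was lower.

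Interferon response genes were prominent among those higher than in normal tissue. Of 19 tested, 10 were higher and 1 lower (Ifit1), with a median log2 difference of 1.39 against −0.25 (median length 2.77 kb), and in values as deposited 2 were higher and 4 lower. Irf7 (293624), the transcription factor that amplifies type I interferon, was at 7.07, 6.73, 4.51, 8.73 and 6.03 FPKM in Control and 77.6, 167, 173, 45.5 and 76.8 FPKM in LIPUS. The lowest LIPUS value was far above the highest Control value (relative difference 4.11 ± 0.35, adjusted p = 7.67e-05), and all 5 Model values, 8.51 to 29.4 FPKM, lay below the LIPUS range. Isg15, a ubiquitin-like protein that interferon induces, was at 3.55, 3.31, 2.79, 5.17 and 1.89 FPKM in Control and 22.3, 144, 30.0, 7.49 and 30.9 FPKM in LIPUS (3.43 ± 0.60, adjusted p = 0.00266). LIPUS 7 was the highest library for this gene, for Ifi27 (214 to 657 FPKM against 46.2 to 92.6 in Control, adjusted p = 0.000321) and for Ifit3 (3.36 to 19.8 FPKM against 0.428 to 1.35 in Control, adjusted p = 0.00288). The list’s mean per library lay 2.63 log2 units above Control in LIPUS 7 and between 0.30 and 1.42 in the other 4. Ifi27l2b, a relative of Ifi27 whose reads may be shared with its family, was at 29.2 to 94.1 FPKM in Control and 271 to 1666 FPKM in LIPUS (3.90 ± 0.45, adjusted p = 0.000268). Its Model values, 67.3 to 206 FPKM, lay below LIPUS. Those of Isg15 (2.23 to 15.5 FPKM), Ifi27 (112 to 273 FPKM) and Ifit3 (0.454 to 5.83 FPKM) overlapped the LIPUS range.

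The interferon-stimulated response element, in short form GAAANN followed by GAAA (N is any base), is where interferon regulatory factors bind. RefSeq windows were found for 7 of the 10 genes called higher. The motif stood on either strand in the 250 bases before the start of 5 of the 7, and in 3.29% of all windows. Those with the smallest p are shown with the motif in capitals (GRCr8, Irf7 chr1:205800024-205800273, minus strand, Ifi27 chr6:128355062-128355311, plus strand, Ifit3 chr1:241527076-241527325, plus strand):
Irf7: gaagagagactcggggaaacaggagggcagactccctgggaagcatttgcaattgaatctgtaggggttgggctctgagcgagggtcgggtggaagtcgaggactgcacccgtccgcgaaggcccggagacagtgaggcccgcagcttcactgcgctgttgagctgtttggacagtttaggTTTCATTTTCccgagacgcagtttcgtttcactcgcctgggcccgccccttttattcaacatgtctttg
Ifi27: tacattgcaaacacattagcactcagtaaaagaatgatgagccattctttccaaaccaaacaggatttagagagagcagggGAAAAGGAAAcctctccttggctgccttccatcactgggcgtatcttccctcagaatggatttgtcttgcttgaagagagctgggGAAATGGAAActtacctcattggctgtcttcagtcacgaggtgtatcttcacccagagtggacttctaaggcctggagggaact
Ifit3: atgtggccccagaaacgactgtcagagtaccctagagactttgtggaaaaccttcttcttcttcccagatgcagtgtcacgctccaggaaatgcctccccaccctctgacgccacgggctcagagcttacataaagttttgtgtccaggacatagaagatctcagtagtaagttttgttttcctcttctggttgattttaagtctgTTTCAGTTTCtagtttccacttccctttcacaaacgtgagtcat
The match began 69 bases before the start in Irf7 and 44 in Ifit3, and Ifi27 had a pair of matches at 169 and 84.

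**Figure D4:**
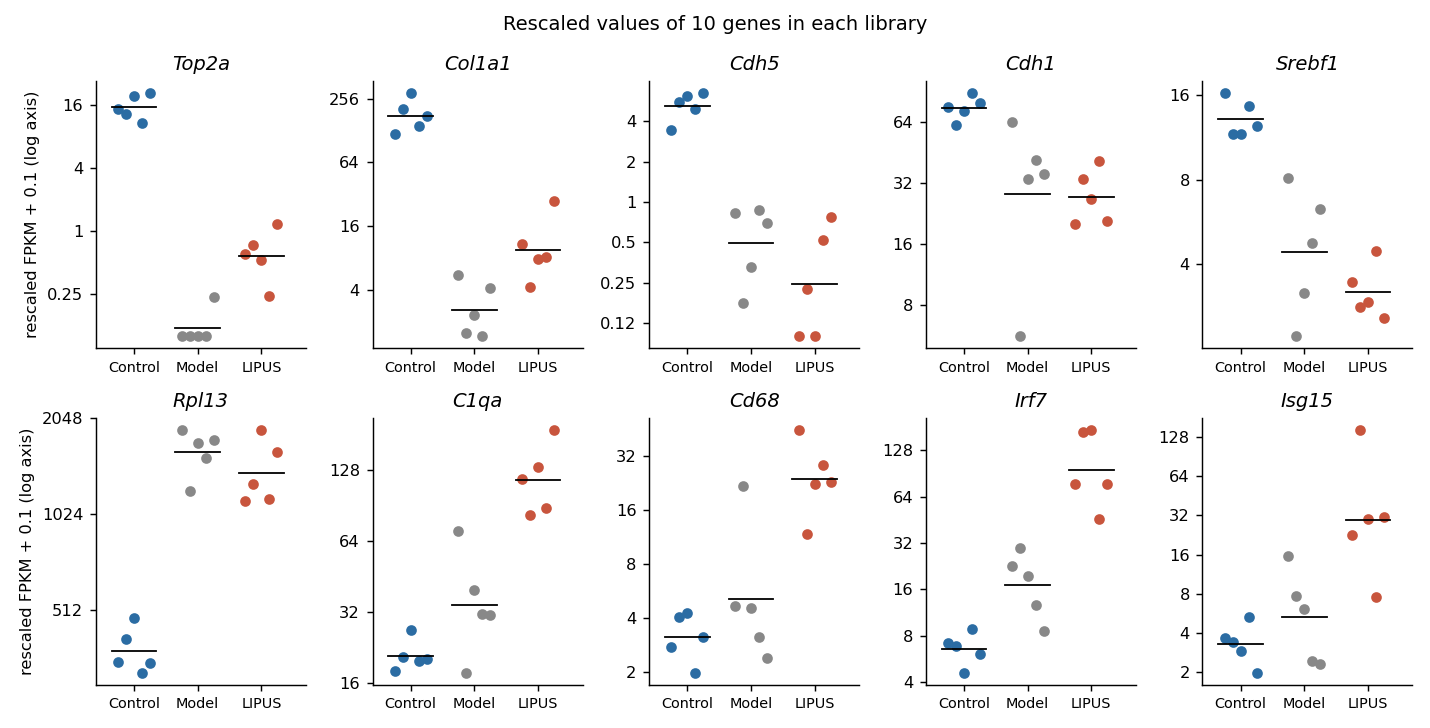
Rescaled FPKM + 0.1 of 10 genes in each Control (blue), Model (grey) and LIPUS (red) library on a log axis, with the mean of the log values as a line. In the upper row Top2a, Col1a1, Cdh5, Cdh1 and Srebf1 are lower in all 5 LIPUS libraries than in any Control library, and in the lower row Rpl13, C1qa, Cd68, Irf7 and Isg15 are higher. Model was not tested.

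Macrophage and monocyte genes were higher as a group. Of 16 tested, 11 were higher and 0 lower (median log2 difference 1.89, median length 1.57 kb), and their summed level ranged from 153 to 249 FPKM in Control and 427 to 1160 FPKM in LIPUS. In values as deposited 8 were higher and 1 lower. C1qa (298566), a chain of the complement starter C1q that tissue macrophages make, was at 17.9, 20.5, 26.6, 19.7 and 20.2 FPKM in Control and 117, 82.1, 132, 88.1 and 188 FPKM in LIPUS. All 5 LIPUS values were above Control (2.72 ± 0.22, adjusted p = 7.67e-05), and the Model values, 17.6 to 70.0 FPKM, lay below all of them. Cd68, a lysosomal glycoprotein used as a macrophage marker, was at 2.66, 3.93, 4.14, 1.87 and 3.02 FPKM in Control and 44.9, 11.7, 22.3, 28.6 and 23.0 FPKM in LIPUS (3.19 ± 0.34, adjusted p = 0.000191). The signalling chain of Fc receptors Fcer1g went from 7.08 ± 2.33 to 44.3 ± 19.2 FPKM (2.81 ± 0.31, adjusted p = 0.000229) and C1qb from 13.8 ± 2.81 to 74.4 ± 43.5 FPKM (2.54 ± 0.30, adjusted p = 0.00037). Model values of Fcer1g (4.84 to 18.6 FPKM) and C1qb (9.91 to 31.2 FPKM) lay below LIPUS. Those of Cd68 (2.28 to 21.8 FPKM) overlapped the LIPUS range. The lipopolysaccharide coreceptor gene Cd14 was at 35.4 ± 5.91 and 33.4 ± 18.8 FPKM and was not called (adjusted p = 0.62), nor were Csf1r, Cd163, Mrc1 and Itgam.

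Other leukocyte genes were measured at low levels. For comparison, 10% of all tested genes were called higher and 19% lower. Of 6 tested T cell genes 2 were higher, the receptor chain Cd3g at 0.928 ± 0.297 and 6.86 ± 2.83 FPKM without overlap (2.93 ± 0.38, adjusted p = 0.00052) and Cd4, which rat macrophages also express, at 4.46 ± 1.14 and 15 ± 7.41 FPKM (1.83 ± 0.38, adjusted p = 0.00901). Of 7 neutrophil genes, S100a9, Csf3r, Cxcr2, Mpo and Elane did not pass the level filter, and the 2 tested were higher. Ncf1, a subunit of the phagocyte oxidase, was at 1.76 ± 0.141 and 5.55 ± 1.67 FPKM (1.80 ± 0.26, adjusted p = 0.00126). S100a8, a calcium-binding protein of granulocytes, was at 0.574 ± 0.376 and 4.12 ± 1.70 FPKM (2.99 ± 0.54, adjusted p = 0.0032), a call that the length correction ended. S100a8 rested on 1 to 7 reads per Control library and 4 to 24 per LIPUS library. No gene of the B and plasma cell list passed the level filter.

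Antigen presentation genes were higher in part. Of 9 class II genes, 5 were higher and 0 lower (median log2 difference 1.28, median length 1.28 kb, −0.03 in values as deposited), 3 without Control 9, and 2 once the length trend was taken out. Ctss, the cathepsin that processes class II complexes, was at 12.3, 20.4, 19.2, 16.2 and 11.9 FPKM in Control and 58.1, 33, 56.1, 55.8 and 100 FPKM in LIPUS without overlap (2.11 ± 0.27, adjusted p = 0.000603), above all Model values (9.68 to 20.6 FPKM). Cd74, the class II chaperone, went from 50.6 ± 4.89 to 146 ± 67.5 FPKM (1.63 ± 0.32, adjusted p = 0.00766), and RT1-Da, a class II chain in a family of similar genes, from 30.4 ± 4.45 to 94.5 ± 62.8 FPKM (1.64 ± 0.37, adjusted p = 0.0152). Of 11 class I genes 5 were higher and 0 lower (median log2 difference 0.85, −0.51 in values as deposited, median length 1.83 kb), and all 5 encode the immunoproteasome or its activator: Psmb8, Psmb9, Psmb10, Psme1 and Psme2. Psmb8, a catalytic subunit that interferon induces, was at 6.36, 7.69, 9.64, 7.88 and 3.93 FPKM in Control and 18.7, 57.0, 57.3, 19.8 and 45.9 FPKM in LIPUS, a clear gap between the groups (2.61 ± 0.37, adjusted p = 0.000899). Psmb10 went from 5.01 ± 1.32 to 14 ± 3.97 FPKM (1.70 ± 0.27, adjusted p = 0.00224). Unlike for Ctss, Model values overlapped LIPUS for Cd74 (10.4 to 143 FPKM) and RT1-Da (5.30 to 39.0 FPKM). The same held for Psmb8 (8.27 to 27.3 FPKM) and Psmb10 (9.74 to 13.7 FPKM).

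Of 12 tested chemokine genes, 2 were higher and 2 lower (median length 0.98 kb), near the 10% and 19% of all tested genes. Cxcl13, which attracts B cells and is made in lymphoid follicles, was at 1.28, 0.754, 10.1, 0.844 and 0.720 FPKM in Control and 16.3, 27.0, 56.2, 9.97 and 93.5 FPKM in LIPUS. Control 8 stood above the lowest LIPUS value (4.50 ± 0.75, adjusted p = 0.0018). The monocyte attractant Ccl7 went from 0.438 ± 0.106 to 2.89 ± 1.39 FPKM (2.60 ± 0.39, adjusted p = 0.00129), and the epithelial chemokine Cxcl14 from 62.0 ± 9.49 to 18.6 ± 7.56 FPKM (−1.56 ± 0.26, adjusted p = 0.000526). Of 12 complement genes 3 were lower (median length 2.89 kb), also near the share of all tested genes, among them Cd55, which protects cells from complement, at 1262 ± 502 and 359 ± 230 FPKM (−1.79 ± 0.52, adjusted p = 0.0122), a call that the length correction ended.

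The genes that the series names as its question were not called. Il1b (24494), the inflammatory cytokine, was at 1.01, 0.245, 0.374, 0.461 and 0.129 FPKM in Control and 0, 2.27, 0.758, 2.79 and 3.77 FPKM in LIPUS, with no read in LIPUS 6 and 3 libraries above Control (1.57 ± 0.90, adjusted p = 0.295, and 0.0142 without LIPUS 6). Il1r1 (25663), its receptor, was at 4.83 to 6.22 FPKM in Control and 1.76, 5.84, 2.36, 3.45 and 3.40 FPKM in LIPUS (−0.53 ± 0.30, adjusted p = 0.0733, and 0.0154 without LIPUS 7). It was called lower with summed FPKM scaling (adjusted p = 0.0351), limma-voom (0.0473) and in values as deposited (0.000912), while its difference was −0.14 after the length correction. Myd88 (301059), the adaptor, was at 7.34 to 8.03 FPKM in Control and 14.2, 13.5, 5.62, 7.51 and 9.75 FPKM in LIPUS (0.56 ± 0.25, adjusted p = 0.39). The ranges of all 3 overlapped. In values as deposited, Myd88 was called lower (fitted log2 difference −1.02, adjusted p = 0.0243). Of 18 tested genes of this pathway 1 was higher and 3 lower (median length 3.62 kb), no more than the 10% and 19% of all tested genes. Il18, a cytokine of the same family, was at 0.294 ± 0.0727 and 1.63 ± 1.04 FPKM (2.22 ± 0.44, adjusted p = 0.00649), and passed the level filter only through the LIPUS libraries. The lower ones, the coreceptor Il1rap (adjusted p = 0.0475), the ubiquitin ligase Traf6 (adjusted p = 0.027) and Tab2, lost their calls in each fit that left out 1 Control library and in that with the length correction. Of the list for Th17 and regulatory T cells, 7 genes passed the level filter, of which 1 was higher and 2 lower (median length 4.44 kb), shares near those of all tested genes. Stat5a, which relays interleukin 2 signals, was at 22.0 ± 13.2 and 47.5 ± 15.4 FPKM with overlapping ranges (1.48 ± 0.41, adjusted p = 0.0392), and was not called in 7 of the 10 fits without 1 library or in values as deposited, where its direction turned. Stat3, which relays interleukin 6 signals, was at 37.7 ± 2.62 and 24.3 ± 11.9 FPKM (−0.49 ± 0.26, adjusted p = 0.0497) and lost the call in 9 of those 10 fits. Ikzf2, the transcription factor Helios of regulatory T cells, was at 3.71 ± 0.745 and 1.65 ± 0.834 FPKM without overlap (−0.997 ± 0.37, adjusted p = 0.0242) and lost the call without Control 6, 9 or 10. The length correction ended the calls of Stat3 and Ikzf2. The defining cytokines and the factor Foxp3 did not pass the level filter and were not tested. Over 5 libraries each, Il17a had 1 read in Control and 0 in LIPUS, Il6 4 and 0, Il10 2 and 10, Tnf 43 and 20 and Foxp3 51 and 38 reads. The 10 Il10 reads came from LIPUS 6 and the 20 Tnf reads from LIPUS 9. Tgfb1, a cytokine of regulatory T cells and many others, was at 5.18 ± 1.01 and 5.08 ± 1.14 FPKM, and the 95% interval of its fitted log2 difference ran from −0.55 to 0.47. That bound depended on the scale, since Tgfb1 was called lower in values as deposited (fitted log2 difference −1.34, adjusted p = 0.00505).

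Short housekeeping genes of translation were higher. All 39 cytosolic ribosomal protein genes were called higher (median log2 difference 1.68, median length 0.77 kb), and 1 in values as deposited, where the median was 0.32. After quantile normalization 22 were higher (median 0.45), and after the length correction 36 (median 0.89). Among the 898 other genes under 1 kb 42.7% were higher. Rpl13 (81765), of the large subunit, was at 350.2, 416, 485, 325 and 349 FPKM in Control and 1125, 1278, 1882, 1145 and 1609 FPKM in LIPUS. The groups did not overlap, and the Model values ran from 1213 to 1884 FPKM (relative difference 2.10 ± 0.21, adjusted p = 0.000176). Ribosomal protein genes have many near-identical pseudogenes, so their counts are uncertain to the extent that reads were split between copies.

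Genes of oxidative metabolism depended on the setting. Over all tested genes 10% were called higher and 19% lower, and over those of 1 to 2 kb 19.1% and 8.49%. Of 23 antioxidant genes 7 were higher and 2 lower (median log2 difference 0.58, −0.78 in values as deposited, median length 1.23 kb), and after the length correction 2 were higher and 3 lower. Without LIPUS 9 the number higher was 11, and 4 without Control 6, 7, 8 or 9. Gpx4, which repairs oxidised membrane lipids, went from 68.4 ± 5.46 to 170 ± 32.4 FPKM (1.54 ± 0.16, adjusted p = 0.000229), with the opposite sign in values as deposited, and Gclc, which starts glutathione synthesis, from 16.8 ± 2.27 to 6.90 ± 2.77 FPKM (−1.10 ± 0.26, adjusted p = 0.00288). Of 34 nuclear-encoded respiratory chain genes 9 were higher and 0 lower (median log2 difference 0.30, −1.06 in values as deposited, −0.09 after quantile normalization, median length 1.14 kb), 21 higher without LIPUS 9, and 2 higher and 9 lower after the length correction. Ndufa2, a small subunit of complex I, was at 91.6 ± 13.9 and 187 ± 32.8 FPKM (1.27 ± 0.17, adjusted p = 0.00129), a direction that turned in values as deposited and with the length correction. Cox4i1, of complex IV, was at 337 ± 39.2 and 489 ± 119 FPKM and was not called (adjusted p = 0.0607).

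**Figure D5:**
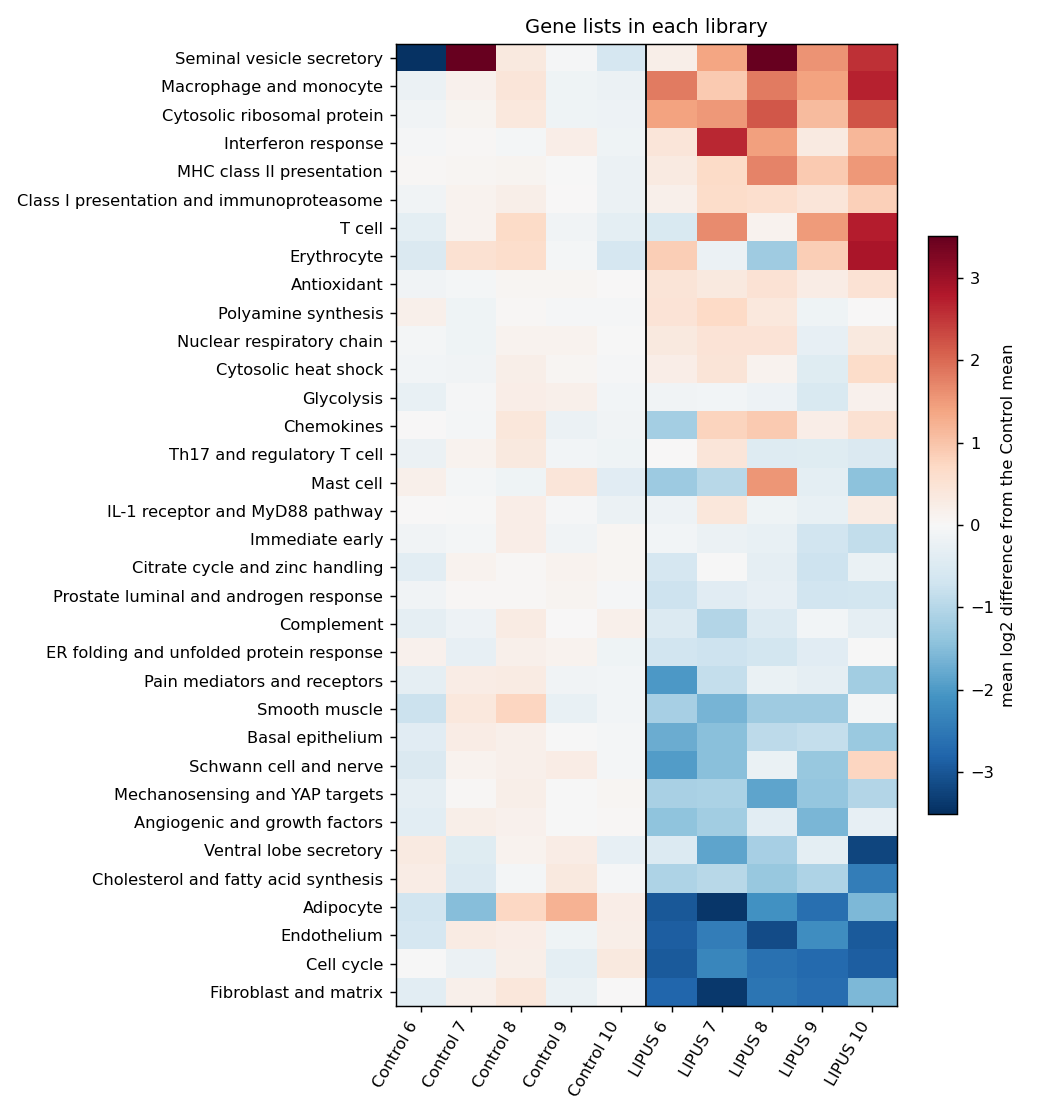
Mean log2 difference from the Control mean over the tested members of each gene list with at least 5 of them (rows) in each library (columns), in colour from blue (lower) to red (higher). The scale ends at −3.5 and 3.5 and 2 seminal vesicle values, in Control 7 and LIPUS 8, lie beyond it. All 5 LIPUS libraries are low for endothelium, cell cycle and matrix and high for macrophage and ribosomal genes, whereas T cell, mast cell and erythrocyte genes vary between them.

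By the size of the difference, the 12 highest genes among those called without overlap and at a mean of 1 FPKM or more were Npff, Gpnmb, Klk1c3, Ccl11, Inmt, Cd5l, Serpina1f, Irf7, Lilrb4, Ifi27l2b, Pla2g2a and Sytl4. Gpnmb, a glycoprotein of lipid-laden macrophages, was at 1.78, 1.79, 1.15, 1.19 and 1.74 FPKM in Control and 280, 14.8, 26.7, 187 and 28.7 FPKM in LIPUS (5.40 ± 0.71, adjusted p = 0.000463). Every LIPUS value was above Control, with LIPUS 6 and 9 well above the other 3. The Model range of Gpnmb, 0.429 to 197 FPKM, overlapped LIPUS. Cd5l, a survival factor that tissue macrophages secrete, had no read in 4 of the 5 Control libraries and 0.0172 FPKM in Control 10, and was at 2.02, 1.49, 1.35, 2.29 and 0.900 FPKM in LIPUS (adjusted p = 0.00016), with a Model range of 0 to 2.16 FPKM. The inhibitory leukocyte receptor Lilrb4 was at 0.0367 to 0.473 FPKM in Control and 0.898 to 10.9 FPKM in LIPUS. Ccl11, eotaxin, which attracts eosinophils, was at 0.647, 1.80, 0.917, 2.50 and 0.692 FPKM in Control and 27.8, 6.00, 106, 5.81 and 70.7 FPKM in LIPUS (4.50 ± 0.79, adjusted p = 0.00224), with high values in LIPUS 6, 8 and 10. Pla2g2a, a secreted phospholipase of inflammation, was at 0.685 to 3.21 FPKM and 5.16 to 69.5 FPKM, and Inmt, a methyltransferase, at 0.539 to 2.45 FPKM and 8.80 to 80.0 FPKM. Npff, a neuropeptide precursor that modulates pain, was at 0 to 0.261 FPKM in Control and 4.07, 1.42, 10.9, 5.88 and 23.1 FPKM in LIPUS (5.70 ± 0.68, adjusted p = 0.000281). In Control it rested on 0 to 4 reads per library. The kallikrein Klk1c3, in a family of similar genes between which reads may be split, was at 0.123 to 1.44 FPKM and 6.68 to 56.2 FPKM. Serpina1f reached 3.71 to 36.1 FPKM from 0.0696 to 1.89 FPKM, while its Model values, 0 to 1.46 FPKM, did not exceed the highest Control value. Sytl4, a regulator of granule release, was at 1.93 to 3.04 FPKM and 9.55 to 94.6 FPKM. Npff, Cd5l and Lilrb4 stayed under 0.5 FPKM in every Control library and passed the level filter only through the LIPUS libraries. A gene so low in Control could be tested only if high in LIPUS, so its p-value is no separate support.

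The 12 lowest by the same rule were Lao1, Slc5a8, Pclaf, Pcdhgc3, Syt13, Plvap, Plin1, Col4a1, Ccnb2, Scd, Top2a and Anln. Pclaf, Ccnb2, Top2a and Anln act in DNA replication or division. Pclaf, which binds the replication clamp, was at 29.8 to 51.8 FPKM in Control and 0, 3.15, 8.97, 8.70 and 0 FPKM in LIPUS 6 to 10. Ccnb2, a mitotic cyclin, was at 3.89 to 9.50 FPKM in Control, at 0.986 and 0.954 FPKM in LIPUS 7 and 9 and without a read in LIPUS 6, 8 and 10. Anln, a scaffold of the dividing cell’s contractile ring, was at 2.38 to 4.75 FPKM and had reads in LIPUS 8 alone, at 0.345 FPKM. Slc5a8, a transporter of short fatty acids, was at 4.49 to 18.4 FPKM in Control and at 1.61 and 2.49 FPKM in LIPUS 6 and 9, with no read in the other 3. Syt13, a vesicle protein, had reads in LIPUS 9 alone (0.600 FPKM against 3.12 to 5.67 in Control), and the protocadherin Pcdhgc3, which shares exons with its neighbours in the gamma cluster, in LIPUS 8 alone (0.0720 FPKM against 2.40 to 4.90). Fitted differences of such genes depend on the 0.1 FPKM added before the log. Anln, Pcdhgc3 and Plin1 passed the level filter only through the Control libraries, so their p-values are no separate support either.

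At the other end, some abundant genes were bounded within 2-fold of normal in the rescaled values, a bound that did not hold under every scaling. Of the genes whose interval lay within 2-fold, the 6 with the highest mean were Cd24, Pdia6, Sec11c, Pdia3, Actb and Serp1, of which 4 serve protein entry or folding in the endoplasmic reticulum. Cd24 (25145), a surface glycoprotein of epithelium, was at 2259, 1210, 1886, 1931 and 1495 FPKM in Control and 1709, 2024, 1521, 1162 and 1016 FPKM in LIPUS, with a fitted log2 difference of −0.25 and a 95% interval of −0.82 to 0.32. The groups overlapped almost wholly. The folding enzyme Pdia6 had an interval of −0.66 to 0.49, the signal peptidase subunit Sec11c −0.26 to 0.60, Serp1, which stabilises the translocon, −0.32 to 0.56, and the folding enzyme Pdia3 −0.93 to 0.01. The cytoskeletal actin gene Actb was called higher inside these bounds, at 716 ± 111 and 1045 ± 140 FPKM (fitted log2 difference 0.55, adjusted p = 0.042), lost the call in 8 of 10 fits without 1 library and turned in values as deposited and after quantile normalization. In values as deposited all 6 genes were called lower (fitted log2 differences −1.82 for Pdia3 to −0.81 for Actb), and so were all 6 after quantile normalization (−1.75 for Pdia3 to −0.67 for Actb). Pdia3 was also called lower with summed FPKM scaling, and Sec11c with the length correction.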

How the data were processed

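Prostate RNA of 10 samples was compared, 5 Control and 5 LIPUS, grouped by the sample titles and fields. The authors deposited an FPKM value for each gene. The rat build rn6 and the tools DESeq2, R 3.2.0, HTSeq, SAMtools, HISAT2 and fastp are named, without roles, per the submitters' processing notes. Per the labels, total RNA was the input and VAHTS Universal V5 the library kit. Strand and any selection or depletion of RNA are not given in the sources used here.

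Reads per gene and gene lengths were recovered from the FPKM as the values at which all libraries become whole numbers: 22436 of 22436 genes were whole within 0.001, which is no check for the 1802 genes above 0 in 1 library. On simulated data the search recovered all reads of 96.72% of 22014 genes. The 13 mitochondrially encoded genes were left out and each library was rescaled to its remaining reads. Protein-coding genes that exceeded 0.5 rescaled FPKM in 5 or more of the 10 samples were fitted as log2(value + 0.1), so a fold understates the change of low genes, in R 4.3.3 with limma 3.58.1 (intensity trend, group as the only term) and Benjamini-Hochberg adjustment over 12139 genes. For the 7 library measures a two-sided exact permutation test was used. Intervals are unadjusted at 95%. Libraries of a group differed beyond sampling noise (chi-square divided by its degrees of freedom at least 72.5).

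The 39 gene lists hold 616 entries, of which 593 matched the table by symbol, 13 by synonym and 10 not. The members and lists were chosen with earlier results of these data known. Named genes are the 12 highest and 12 lowest called without overlap at a mean of at least 1 FPKM, of each list up to 4 called members of smallest p and the most abundant member not called, the 10 genes of the series' question and the 6 most abundant genes bounded within 2-fold. Not every gene that this rule names is reported here. A few further members, such as Mki67, are named because a count or a promoter window concerns them. Promoter windows came from RefSeq (GRCr8), taking the first start listed for a gene. Alternatives changed the pseudocount, filter, scaling, test, samples and block, and a correction for gene length was added after seeing the data.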

Additional observations from a re-analysis of the deposited data

Results flagged for a closer look

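Single libraries stood apart from the other 4 of their group in 31 of 232 groups examined (13.4%), a group being the 5 Control or the 5 LIPUS values of a measure or gene described, and in each case as the highest. A library was taken to stand apart when its gap to the nearest other, divided by the range of the group, passed Dixon’s 95% critical value. Chance passes it in about 1 in 20 groups of normally spread values. Where the other 4 libraries had no read, the gap equals the range and the rule passes at any value. This held for Cd5l, Il17a, Il6, Il10, Tnf, Kdr, Plin1, Syt13, Pcdhgc3 and Anln, so the 13.4% cannot be compared with 1 in 20. No cause was tested.

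LIPUS 10, the library with the fewest nuclear reads, was the high one for Klk1c3 (56.2 FPKM), Pla2g2a (69.5), Col1a1 (27.5), Myl9 (595), Fabp4 (69.6), C1qb (149.8) and Cd14 (65.9). LIPUS 7 was the high one for Ifi27 (657 FPKM), Isg15 (144.5), Ifit3 (19.8), Vegfa (6.96) and Kdr (0.178). LIPUS 8 was high for Svs3a (385 FPKM), Krt15 (173), Pcdhgc3 (0.0720) and Anln (0.345). LIPUS 9 was high for Syt13 (0.600 FPKM), Plin1 (0.175) and Tnf (0.701), and LIPUS 6 for Il10 (0.256).

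Among Control libraries, Control 7 held 13.8% of its nuclear reads in seminal vesicle transcripts and was high for Semg1 (91520 FPKM), Svs3a (13.5), Vegfa (14.1) and Il17a (0.102). Control 8 was high for Cxcl13 (10.1 FPKM), Npff (0.261) and Il6 (0.111), Control 9 for Scd (225), Control 6 for Traf6 (4.25) and Control 10 for Cd5l (0.0172).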

How the results depend on the processing

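Both counts of calls stayed within 1.5 times of 1214 higher and 2307 lower with other pseudocounts and filters, median-of-ratios and quantile scaling, array weights, limma-voom on the recovered reads (1276 and 2753) and all 15 samples in the fit. Values as deposited, whose scale includes the mitochondrial genes, gave 96 higher and 9169 lower genes and a median of −1.51. Summed FPKM scaling gave 682 higher (18.6% of calls against 34.5%), and the length correction 1486 lower (47.2% higher). Leaving out 1 library gave 883 to 1803 higher, 1629 to 2769 lower and a median of −0.31 to −0.15. Among these, the split moved by over 10 percentage points without LIPUS 9 only (45% higher). Of library measures (LIPUS minus Control), the seminal vesicle percent ranged from −2.29 to 1.14, turning without Control 7, and the percent in the 10 most abundant genes from −10.8 to −5.10, passing without LIPUS 9 (exact permutation adjusted p = 0.037).

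Same-numbered samples showed little common deviation (r from −0.13 to 0.25, the highest for number 6). So few correlations cannot settle whether the numbers pair samples. With the replicate number as a block 1034 genes were higher and 1915 lower, Actb, Traf6, Il1rap, Stat3 and Ikzf2 lost their calls, Fabp4 gained one, and only the number 6 correlated best with its own.

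Among 105 named genes (101 in values as deposited), directions turned as follows (fitted log2). As deposited: Myd88 −1.02, Sec11c −1.19, Actb −0.81, Serp1 −1.24, Krt18 −0.70, Epcam −1.23, Gpx4 −0.068, Ndufa2 −0.33, Cox4i1 −0.85, Stat5a −0.12 and Egf −0.087. With summed FPKM: Sec11c −0.046, Serp1 −0.095 and Epcam −0.083. With median-of-ratios: Tgfb1 0.04. With quantile normalization: Tgfb1 0.20, Sec11c −1.05, Actb −0.67, Serp1 −0.97, Epcam −0.31 and Cox4i1 −0.16. With the length correction: Sec11c −0.73, Epcam −0.16, Ndufa2 −0.014 and Cox4i1 −0.36. Leaving out 1 library gave −1.63 to 0.55 for Semg1, −0.12 to 0.088 for Tgfb1, −0.27 to 0.054 for Pdia6, −0.95 to 0.034 for Krt15 and −0.52 to 0.17 for Dcn, all uncalled genes. The cause was not tested. As deposited 10 called genes lost their call in the same direction, namely Cd4, Ncf1, Ctss, Cd74, RT1-Da, Psmb10, Ifi27, Ifit3, Ddit3 and Rpl13. In the same setting, 13 uncalled genes kept their direction and were called lower. The uncalled genes Myd88, Sec11c, Serp1, Epcam and Cox4i1 turned and were called lower as well. Calls were also lost with limma-voom (Ccl11, Plin1 and Svs3a), with all 15 samples (Svs3a, Cd74, Gclc, Stat5a and Stat3), with array weights (Actb, S100a8 and Stat5a), with the length correction (Krt18, S100a8, RT1-Da, Cd55, Traf6, Il1rap, Stat3 and Ikzf2), with summed FPKM (Actb, Krt18 and Stat5a), with quantile normalization (Krt18, Traf6, Il1rap, Stat5a and Ikzf2), with non-coding genes added (Stat3) and with another filter or pseudocount (Il1rap and Stat3, and Actb and Stat5a with no filter). Calls were gained by Egf with a pseudocount of 1, by Egf and Cox4i1 with median-of-ratios, by those and Mcm7 without the 20 most abundant genes in the scale, by Egf, Cox4i1 and Il1r1 with limma-voom, by Il1r1, Pdia3 and Mcm7 with summed FPKM, by Cd24, Pdia6 and Pdia3 with quantile normalization and by Egf and Scgb1d4 with the length correction. Among uncalled genes that turned, Sec11c and Serp1 were called lower with quantile normalization and Sec11c with the length correction. Depth limits the LIPUS side: 10339 of 12139 tested genes had reads in all 10 libraries.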
